A study of Mus musculus with 4 samples.

Results

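Genes that mark classes of hippocampal interneurons, 10 in all, were followed in CA1 tissue of handled, unshocked mice. They are 7 precursors of secreted peptides (Sst, Cort, Npy, Cck, Vip, Tac1 and Penk) and 3 calcium binding proteins (Pvalb, Calb1 and Calb2). Every probe set whose platform annotation gave 1 symbol equal to a member was taken, which gave 13 probe sets of 12488 and 10 genes of the 8252 with a probe set of their own symbol. Of the 10 genes, 8 had 1 probe set, Pvalb had 2 and Penk had 3. The RNA came from hippocampal field CA1 of C57BL/6J mice that were young and male. The only treatment was handling by the experimenter, and all 4 arrays share it. The arrays were taken 1, 2, 4 and 6 hr after other mice had received their last shock, with 1 array per time, and the shocked mice were not analysed here. No source used here says how many mice an array represents. With 1 array per time, a difference between times cannot be told apart from a difference between animals, dissections or arrays.

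GABAergic interneurons are the minority of hippocampal neurons, and their classes are told apart largely by the peptides and calcium buffers they make. Peptide precursors are cut and modified in the secretory pathway, stored in dense core vesicles and released on sustained activity. Their receptors couple to G proteins. Parvalbumin and the calbindins are EF-hand proteins that bind and buffer calcium in the cytoplasm. Some of these genes are also active outside interneurons: Calb1 in part of the CA1 pyramidal cells and in dentate granule cells, Cck at low levels in pyramidal cells, Penk in dentate granule cells, and Tac1, Penk and Calb2 in neighbouring regions. In tissue RNA, fewer cells of a type and less RNA per cell cannot be told apart.

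No member passed a test for a straight-line change with the hours. Of the 12 member probe sets that passed the filter on low values, 0 passed the limma test (Benjamini-Hochberg adjustment over all 7453 tested probe sets), and 0 passed at an unadjusted p under 0.05. Over all probe sets 0% passed after adjustment, and 382 passed unadjusted. Ordinary least squares also gave 0 member probe sets, adjusted or not. The slope was above 0 for 7 of the 12 and below 0 for 5, beside 50.9% above 0 over all tested probe sets. The median slope was 0.017 (log2 per hr), beside 0.0015 over all tested probe sets. The steepest member was Calb2, whose log2 slope per hr was 0.23 ± 0.10 (SE; adjusted p = 0.973 by limma). A p that misses the threshold does not show that the levels were equal. What follows describes the levels themselves.

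**Figure D1:**
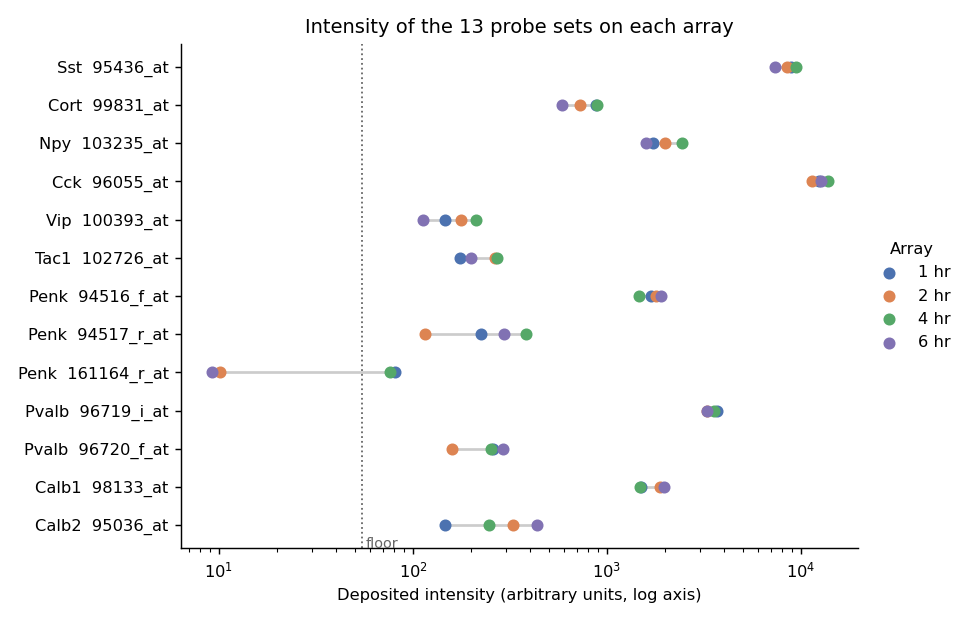
Deposited intensity (horizontal log axis, arbitrary units) of each of the 13 probe sets, with 1 point per array coloured by hour and a grey line from the lowest to the highest. The dotted line is the floor of 54.6. Sst and Cck sit near the bright end with all points close together, while Calb2 and the dim Penk and Pvalb probe sets spread more widely.

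Somatostatin and cortistatin, 2 related inhibitory peptides that share receptors, went through the arrays in the same order on the deposited scale. Sst, which marks interneurons that contact distal dendrites, read 8852, 8435, 9379.6 and 7309 at 1, 2, 4 and 6 hr. The 4 hr array was highest and the 6 hr array lowest, 1.28-fold apart. Its mean was 8494 ± 879.6 (SD, n = 4; 1 array at each time). Cort read 878, 724, 888 and 587 at the same hours. The top 2 arrays, 4 and 1 hr, differed by 1.01-fold, and the lowest, 6 hr, lay 1.23-fold under the next. The mean of Cort was 769 ± 143 (SD, n = 4).

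Neuropeptide Y and vasoactive intestinal peptide also shared an order. Npy, the precursor of an inhibitory peptide found in several interneuron classes, read 1723, 1996, 2425 and 1588. It was highest at 4 hr, 1.21-fold over the next array, and 1.53-fold over the lowest. Its mean was 1933 ± 369 (SD, n = 4). Vip, which marks interneurons that mainly contact other interneurons, read 145, 177, 210.1 and 112. Its highest array lay 1.87-fold over its lowest, and its mean was 161 ± 42.0 (SD, n = 4). Probe sets as dim as that of Vip had a median range of 2.28-fold, so the range of Vip was below that of its brightness quartile. The range of Npy was above the median of its own quartile, 1.33-fold, and exceeded that of 78.1% of the probe sets there.

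The start-site windows of these 4 genes are shown because the genes pair off by the order of their arrays on the deposited scale. Cyclic AMP response elements, bound by CREB, are a known feature of peptide precursor promoters. Each window runs from 250 bases before the RefSeq start site to 50 after it (GRCm38.p6), 5′ to 3′ along the gene. Capitals mark the cyclic AMP response element TGACGTCA, its short core TGACG and the TATA box TATAAA, each searched on both strands. The full element contains the core.

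Sst (chr16:23890795-23891094, minus strand): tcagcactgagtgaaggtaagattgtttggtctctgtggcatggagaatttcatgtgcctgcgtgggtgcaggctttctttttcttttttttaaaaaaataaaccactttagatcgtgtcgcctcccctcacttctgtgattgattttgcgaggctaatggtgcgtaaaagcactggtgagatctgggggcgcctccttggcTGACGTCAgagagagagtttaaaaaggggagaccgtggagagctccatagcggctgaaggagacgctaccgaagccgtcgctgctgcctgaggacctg

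Cort (chr4:149126714-149127013, minus strand): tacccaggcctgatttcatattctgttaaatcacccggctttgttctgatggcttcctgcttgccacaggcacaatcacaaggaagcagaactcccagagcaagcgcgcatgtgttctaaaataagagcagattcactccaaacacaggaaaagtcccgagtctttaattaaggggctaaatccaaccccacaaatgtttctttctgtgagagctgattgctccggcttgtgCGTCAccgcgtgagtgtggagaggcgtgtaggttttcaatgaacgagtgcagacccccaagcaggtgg

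Npy (chr6:49822460-49822759, plus strand): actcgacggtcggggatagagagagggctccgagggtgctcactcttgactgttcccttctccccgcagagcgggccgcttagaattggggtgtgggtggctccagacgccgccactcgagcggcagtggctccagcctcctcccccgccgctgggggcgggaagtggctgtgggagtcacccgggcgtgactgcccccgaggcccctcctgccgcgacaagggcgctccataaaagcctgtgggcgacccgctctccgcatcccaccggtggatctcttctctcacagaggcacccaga

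Vip (chr10:5638968-5639267, plus strand): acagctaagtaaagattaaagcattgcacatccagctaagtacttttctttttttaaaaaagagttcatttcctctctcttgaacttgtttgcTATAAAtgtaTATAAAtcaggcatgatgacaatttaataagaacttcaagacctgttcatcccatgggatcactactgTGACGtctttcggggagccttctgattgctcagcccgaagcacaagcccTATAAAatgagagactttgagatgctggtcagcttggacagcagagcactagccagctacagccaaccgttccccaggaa

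Of these 4, the full element was found in Sst alone, starting 48 bases before the start site. Cort held 1 core, on the other strand, starting 18 bases before the start site. Vip held a core starting 79 bases before the start site and 3 TATA boxes, the nearest starting 30 bases before it. None of the 3 motifs was in the Npy window. Windows were also at hand for Cck, Tac1 and Pvalb (8 windows of 7 genes in all), and cores were found in 5 of the 7 genes, Sst, Cck, Vip, Tac1 and Cort. Over all 32851 windows of 300 bases, 20.8% held the core, 1.79% the full element and 13.6% the TATA box. A match is a run of letters and not a measured binding site. No window was at hand for Penk, Calb1 or Calb2. The motifs therefore cannot be compared between members highest at 4 hr and the other members.

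Cholecystokinin and substance P precursors were also highest at 4 hr but took other orders below it. Cck, made by a class of basket cells, read 12414, 11337, 13694 and 12730.5. Its lowest array on the deposited scale was 2 hr and its highest lay 1.21-fold above that, with a mean of 12544 ± 971 (SD, n = 4). With the arrays shifted to a common median the 1 hr array was lowest and the range 1.10-fold. Its intensity was in the top 1% of probe sets on the arrays, at percentiles 99.2 to 99.5. Tac1, the precursor of substance P and neurokinin A, read 174, 265, 269.9 and 199.8. The 2 and 4 hr arrays were nearly equal, 1.02-fold apart, and the 1 hr array was lowest, 1.55-fold under the highest. Its mean was 227 ± 47.8 (SD, n = 4). Brightness differs between probe sets for the same amount of RNA, so no order of transcript amounts among genes follows from these intensities.

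Thus the probe sets of Sst, Cort, Npy, Cck, Vip and Tac1 were each highest at 4 hr on the deposited scale. Through the brightest probe set of each gene, 6 of 10 members were highest there, beside 26.5% of all tested probe sets, and 7 of the 12 member probe sets were. Lowest at 6 hr were 4 of the 10 (Sst, Cort, Npy and Vip), beside 22.3% of all. The same 4 met both conditions, which 7.78% of all probe sets met. These counts were made after the values were seen and have no test. They depend on the scaling: with the arrays shifted to a common median Npy, Cck, Vip and Cort were still highest at 4 hr but Sst and Tac1 were not, and with quantile normalization Tac1 was not. With the common median 17.9% of all tested probe sets were highest at 4 hr. The shift to a common median raised the 2 hr array by 0.17 log2 units, and moved each of the others by -0.07 to -0.03.

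Of 5 tested choroid plexus markers, 2 were highest at 4 hr, Ttr and Igf2, beside 26.5% of all tested probe sets. The summed intensity of the 7 listed genes of that tissue on the array, of 11 listed, was 2163, 2139, 6554 and 2408 at 1, 2, 4 and 6 hr. Ttr, which encodes transthyretin and is the most abundant of them in that tissue, read 140.3, 140.3, 3217 and 196. Igf2 read 1461, 1287.5, 2564 and 1492. These 2 genes made up most of the sum at 4 hr. Kl was highest at 2 hr (370.0), and Folr1 and Cldn1 at 1 hr (278 and 156). Median intensity was 204 on both the 1 and 4 hr arrays, 173 at 2 hr and 198 at 6 hr. The ratio of 3′ to 5′ signal of the Gapdh control, a measure of RNA integrity, was 4.84, 7.56, 6.25 and 4.89 at 1, 2, 4 and 6 hr. For the β-actin control it was 3.44, 3.20, 3.24 and 2.99. The 2 hr array, with the highest Gapdh ratio and the lowest median, also had the most values under the floor, 28.3%. On the 6 hr array, where 4 peptides were lowest, 4 of 7 tested oligodendrocyte markers were lowest too (22.3% over all tested probe sets). They were the myelin genes Mbp (7638, 7631, 6482 and 5729), Mobp (14207, 13676, 13671 and 9821), Mog and Cldn11. Of the other tested ones, Sox10 was highest at 6 hr (905, 846, 1021 and 1057), Mag was lowest at 1 hr and Mal at 2 hr. The list summed to 26458, 26014, 25126 and 19955, with Mobp its brightest gene on each array. The part of these array and marker differences in the peptide values was not tested.

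**Figure D2:**
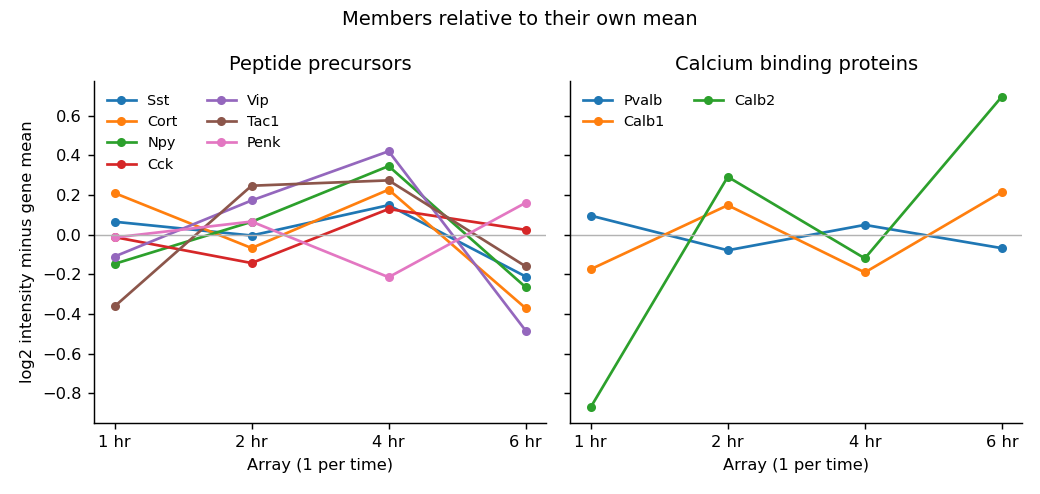
Log2 intensity of the brightest probe set of each member minus its own mean over the 4 arrays (vertical axis) on each array (horizontal axis, 1 per time), with 1 line per gene. Values are on the deposited scale. In the left panel 6 of the 7 peptide precursors peak at 4 hr and Penk is lowest there. In the right panel Calb1 and Calb2 are highest at 6 hr.

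Penk, the precursor of the enkephalins, differed between its own probe sets. The brightest read 1688, 1785, 1469.6 and 1906 at 1, 2, 4 and 6 hr, so it was lowest at 4 hr and highest at 6 hr, 1.30-fold apart. On the deposited scale its order was the exact reverse of that of Sst and Cort, with 0 of the 6 pairs of arrays ordered alike. With a common median Cort was still highest at 4 hr but Sst was not. The order of this Penk probe set, which was highest at 2 hr on that scale, cannot be the reverse of both there. The second brightest read 223, 115, 383 and 296. It was highest at 4 hr and lowest at 2 hr, 3.32-fold apart, and without the 2 hr array the range was 1.72-fold. The platform annotation ties these 2 probe sets to the same database entry. The third read 81.0, 10.1, 76.5 and 9.2, close to the floor at 1 and 4 hr and below it at 2 and 6 hr, and it did not pass the filter. The brightest and the second ordered 2 of 6 array pairs alike, and the brightest and the third 1 of 6. The direction of Penk over these arrays therefore depends on the probe set read.

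Parvalbumin, the calcium buffer of fast-spiking basket and axo-axonic cells, varied least. Its brightest probe set read 3678, 3259, 3561 and 3283, and its highest array lay 1.13-fold over its lowest. Only 7.68% of probe sets in its brightness quartile had a smaller range. Its mean was 3445 ± 207 (SD, n = 4). The dim probe set read 257, 159, 253 and 289.5. On the deposited scale it was lowest at 2 hr like the bright one but highest at 6 hr. It spread 1.83-fold, or 1.15-fold without the 2 hr array. With a common median it was still lowest at 2 hr, but the bright probe set was highest there. The 2 probe sets ordered 4 of 6 array pairs alike.

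**Figure D3:**
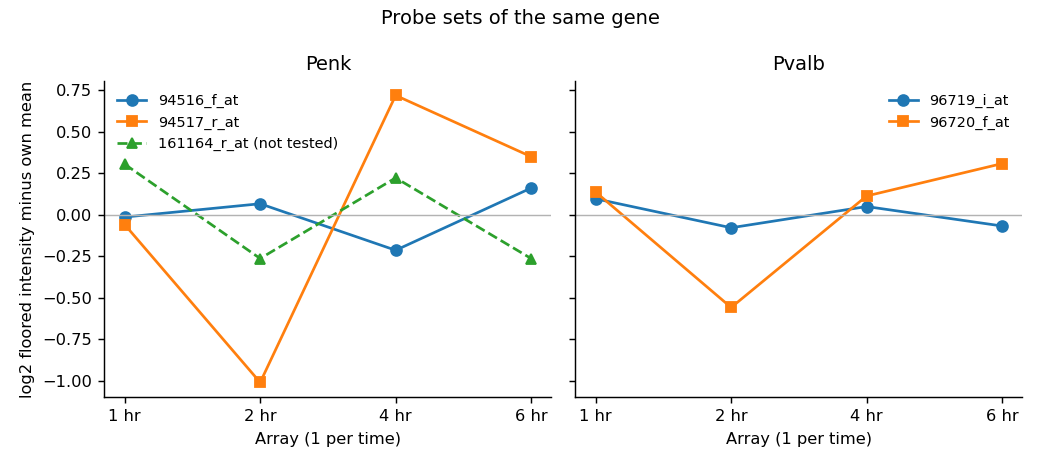
Log2 intensity (values under 54.6 set to that floor) minus the probe set's own mean (vertical axis) on each array (horizontal axis) for the 3 probe sets of Penk and the 2 of Pvalb, drawn from bright to dim as blue circles, orange squares and green triangles. The second Penk probe set peaks on the 4 hr array, where the brightest is lowest. On this deposited scale the Pvalb probe sets share their low at 2 hr but not their high.

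Disagreement of this kind was common on these arrays. Over the 903 genes with more than 1 tested probe set, which gave 1175 pairs of probe sets, 53.6% of array pairs were ordered alike, and 5.96% of the probe set pairs had all 6 alike. Over all pairs of tested probe sets, of any gene, the share was 50.04%. Where both probe sets of a gene were in the brightest quartile it was 60.8% (116 pairs), and where both were in the dimmest it was 55.6% (84 pairs). A suffix letter before "at" (such as f, g, i or r) marks, in the array maker's naming, a probe set that is shared by similar sequences, incomplete, or designed with relaxed rules. All probe sets of Penk and Pvalb carry one. Agreement was 53.8% in pairs where 1 or both carried a letter and 53.3% in pairs where neither did. The 4 probe set pairs of Penk and Pvalb, with the third Penk probe set included, reached 41.7%, and no test was made. The 53.6% over all genes uses tested probe sets only. The third Penk probe set was not tested and ties at the floor at 2 and 6 hr, which counts as not alike. Between tested probe sets, Penk ordered 2 of 6 array pairs alike and Pvalb 4 of 6. With a common median, or with the floor at the 40th percentile, the 4 pairs gave 25%, where all genes gave 55.3% and 52.2%. With no filter, so that dim probe sets count on both sides, the 4 pairs gave 41.7% and all genes 34.9%. Whether the members agree less than other genes thus depends on the filter.

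Both calbindins were highest at 6 hr on the deposited scale, and Calb2 was the member that spread most through a probe set without a suffix letter. With a common median Calb2 was still highest at 6 hr, but Calb1 was highest at 2 hr. Calb1, calbindin-D28k, read 1498, 1873, 1481 and 1962 at 1, 2, 4 and 6 hr. The 2 and 6 hr arrays formed an upper pair and the 1 and 4 hr arrays a lower one, which differed by 1.01-fold. Its mean was 1703 ± 249.9 (SD, n = 4) and its range 1.32-fold. Calb2, calretinin, which marks interneurons that contact other interneurons, read 146, 327, 246 and 433. It was lowest at 1 hr and highest at 6 hr, 2.96-fold apart, with a mean of 288 ± 122 (SD, n = 4). Without the 1 hr array its range was 1.76-fold. Calb1 and Calb2 ordered 5 of 6 array pairs alike, and Calb1 and the bright Penk probe set all 6.

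The second Penk probe set and that of Calb2 had a highest array at least 2-fold over the lowest, 2 of 12 beside 25.3% of all tested probe sets. None of the 12 had 1 array that stood at least 2-fold apart from the rest, as 7.53% of all did. The median range of the 12 was 1.52-fold, beside 1.56-fold over all. Spread fell with brightness: the median range was 2.28-fold in the dimmest quartile of tested probe sets and 1.67, 1.45 and 1.33-fold in the next ones. Calb2 exceeded 93.3% of its quartile, the dim Penk probe set 95.2%, and Cck 22.4%.

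**Figure D4:**
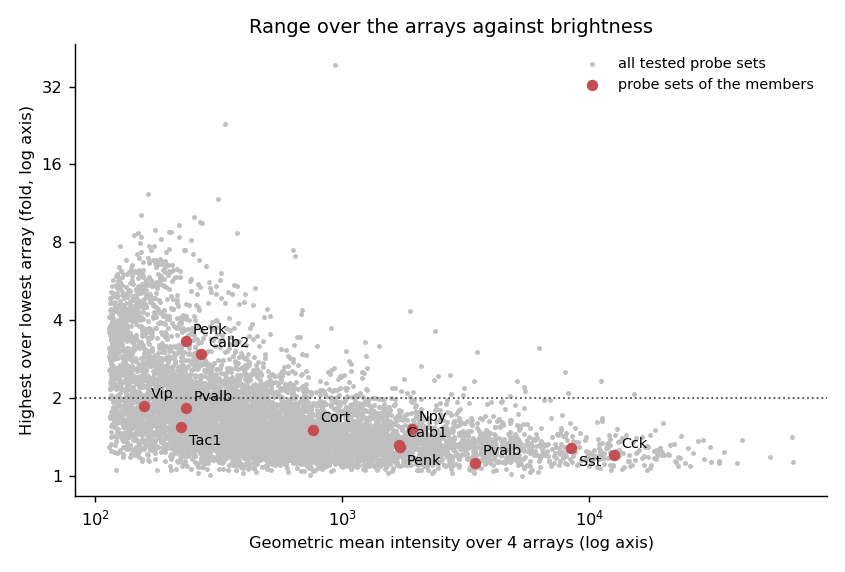
Highest over lowest array (fold, vertical log axis) against the geometric mean intensity over the 4 arrays (horizontal log axis) for the 7453 tested probe sets (grey) and the 12 of the members (red). The dotted line is 2-fold; Calb2 and 1 Penk probe set lie above it, and the bright probe sets of Pvalb, Cck and Sst lie between 1.13 and 1.28.

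On the deposited scale the 10 members as a group did not vary together more than other probe sets did. Over their 45 gene pairs, through the brightest probe set of each, 49.3% of 270 array comparisons were ordered alike, beside 50.04% for all pairs of tested probe sets. With a common median these shares were 59.6% and 52.3%. Among the 7 peptide precursors the share on the deposited scale was 58.7% (21 gene pairs). Without Penk, left out after its values were seen, it was 75.6% (15 gene pairs). Those pairs join the 6 genes highest at 4 hr, so every array pair with the 4 hr array was alike by that choice. Pairs of the brightest Penk probe set with another peptide gave 16.7%. The second Penk probe set was itself highest at 4 hr. Between a peptide and a calcium binding protein it was 40.5% (21 gene pairs). Without the 4 hr array the share among the 7 peptides was 46.0%. Gene pairs share arrays and members, so these shares are not independent observations. The closest pair of members by size of change was Cck and Pvalb, 0.088 log2 units apart (the root mean square difference of values centred on each gene's mean), followed by Penk and Calb1 at 0.095 and Sst and Pvalb at 0.096.

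Each member had a nearest gene on the arrays that was closer to it than any other member was. By the same root mean square difference over the 4 arrays, the nearest genes to Sst were Ncoa1 and Rasa3 (0.018 and 0.020 log2 units), to Cort Cggbp1 and Ube2e3 (0.012 and 0.024), to Npy Midn and Rnft1 (0.015 and 0.023), and to Vip Wdr26 and Tollip (0.0075 and 0.021). Nearest to Cck were Npc2 and Stx4a (0.0060 and 0.011), to Tac1 Tspan12 and Scn1a (0.017 and 0.019), and to Penk Zyg11b and Gabrb1 (0.013 and 0.014). Nearest to Pvalb were Hgs and Polr2a (0.017 and 0.019), to Calb1 Rabep1 and Pmpcb (0.018 and 0.021), and to Calb2 Rap1a and Zfp943 (0.053 and 0.11). With 4 arrays such matches are frequent: 307 of the 7453 tested probe sets had the order of Sst and Cort, and 273 that of Npy and Vip.

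General markers of inhibitory neurons were highest at 4 hr in 1 of 12 tested genes, beside 26.5% of all tested probe sets. Gad1, a GABA-synthesising enzyme, read 4153, 4729.6, 3638 and 3686 at 1, 2, 4 and 6 hr, and Slc32a1, the vesicular GABA transporter, read 2345, 3841, 3417 and 2645. Gad2 read 121, 139.6, 114 and 74.6 and did not pass the filter. These 3 were highest at 2 hr. The gene highest at 4 hr was Kcnc1, a potassium channel of fast-spiking cells, which read 99.0, 137, 196.5 and 86.9. Of the 12, 6 had a slope above 0 and 4 ranged at least 2-fold, beside 50.9% and 25.3% of all tested probe sets. Dlx1, a transcription factor of interneuron development, ranged 2.14-fold, and Npas1, another transcription factor, 1.34-fold.

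Of 20 peptide receptor genes on the array 8 passed the filter on low values. The list also holds Oprl1, the nociceptin receptor, and Adcyap1r1, the PACAP receptor, whose ligands are not among the 7 peptides. The median range of the 8 was 1.64-fold, 2 ranged at least 2-fold, 3 were highest at 4 hr and 4 had a slope above 0. Over all tested probe sets the median range was 1.56-fold, and the shares were 25.3%, 26.5% and 50.9%. Sstr2, a somatostatin receptor, read 509, 212, 388 and 39.3, the last under the floor, so it spread at least 9.32-fold through a probe set with a suffix letter. Sstr5 read 183, 86.9, 101 and 156. Npy1r read 197, 159.7, 229 and 214, and Cckbr 844, 646, 927 and 906, and both were highest at 4 hr.

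Of 12 peptide processing genes on the array 11 passed the filter. Of these, 1 ranged at least 2-fold and 1 was highest at 4 hr, beside 25.3% and 26.5% of all tested probe sets. Their median range was 1.37-fold, beside 1.56-fold over all tested probe sets. Pcsk1, prohormone convertase 1, was under the floor at 1 and 6 hr and did not pass the filter. Cpe, the carboxypeptidase that trims peptide ends, read 23378, 24047, 22001 and 22103, 1.09-fold apart. Scg5, a chaperone of prohormone convertase 2, ranged 1.12-fold. Pcsk1n, an inhibitor of prohormone convertase 1, read 6359.8, 3749, 5318 and 6846. Pam, the enzyme that amidates peptides, read 215, 88.6, 10.6 and 196, under the floor at 4 hr.

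Other neuropeptides and other calcium binding proteins were split. Of 13 tested precursors of other secreted peptides, 8 had a slope above 0, 5 ranged at least 2-fold and 4 were highest at 4 hr. Hcrt, the hypothalamic orexin precursor, read 418.5, 82.1, 43.9 and 486, and Nppa, a natriuretic peptide, 553, 168, 177 and 312.5. Igf1 and Sct ranged 1.36 and 1.46-fold. Of 23 tested calcium binding proteins, 7 had a slope above 0, 3 ranged at least 2-fold and 3 were highest at 4 hr. Over all tested probe sets these 3 shares were 50.9%, 25.3% and 26.5%. Ncs1, a neuronal calcium sensor, ranged at least 6.17-fold and Casq2, of muscle calcium stores, at least 3.29-fold, each with an array under the floor. S100a13 and S100b ranged 1.10 and 1.11-fold. Of 14 tested genes that activity or CREB induces, 4 were highest at 4 hr and 4 lowest at 6 hr, beside 26.5% and 22.3% of all tested probe sets. In none of these lists did a gene pass limma's test, where 0% of all probe sets did.

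The dissection was checked with region and cell markers. All 8 CA1 markers on the array, of 14 listed, passed the filter, among them Wfs1 at 1668 to 2594 and Neurod6 at 853 to 1274. Camk2a was under the floor at 6 hr and read 137 to 161 on the other arrays. Passing does not set CA1 apart: all 10 astrocyte and 8 of 11 cerebellum genes on the array passed too. Nr5a1, of the hypothalamus list, read 1835 to 2378. Of all tested probe sets, 26.5% were highest at 4 hr. Highest at 4 hr were 2 of 8 tested CA1 genes, 2 of 6 for CA3, 2 of 5 for the dentate gyrus, 2 of 4 for striatum, 4 of 5 for thalamus, 5 of 8 for cerebellum (a list that holds Calb1), 3 of 7 for hypothalamus, 2 of 5 for choroid plexus, 1 of 5 for blood and meninges, 2 of 7 for oligodendrocytes and 1 of 10 for astrocytes. The summed intensity of the thalamus list was 1718, 1346, 2696 and 2049 at 1, 2, 4 and 6 hr, and Tcf7l2, Lef1 (266, 181, 850 and 626.5), Prkcd and Zic1 were highest at 4 hr, Rora at 6 hr. Gbx2 was under the floor on all arrays. The striatum list summed to 2158, 1577, 2153 and 1895, with Drd2 (236, 165, 273 and 212), Pde1b, Foxp1 and Strn above the floor on all arrays, Isl1 under it on 3 and Rgs9 on all. The dentate list summed to 2336, 2900, 2513 and 2662, with Dsp, Il16, Lct, Marcks and Neurod1 above the floor on all arrays, Tdo2 under it at 2 hr and Prox1 at 2 and 4 hr. Whether these shifts bear on the members was not tested.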

How the data were processed

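Per the labels, total RNA from CA1 was measured on 4 single-channel arrays of handled mice. The authors deposited 1 linear intensity per probe set and array. The summarisation method is not given in the sources used. The 2% trimmed means of the arrays were all 500.3, so the deposited values were already scaled. Symbols came from the platform annotation, and the 10 members' symbols matched RefSeq (GRCm38.p6) through the Entrez identifier. The members and the 17 gene lists were chosen with earlier results of these data known.

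Values under 54.6, the 25th percentile, were set to that floor, log2 was taken, 66 control probe sets were left out, and the 7453 probe sets above the 40th percentile of mean log2 were tested. A slope over hours was fitted with limma 3.58.1 in R 4.3.3 (lmFit, eBayes) and adjusted over all tested probe sets at 0.05. The fit was tested on simulated data. Whether separate animals supplied each array is not stated, so p-values measure only the spread between arrays, which may be technical. Likeness was the number of the 6 array pairs ordered alike (a tie counts as not alike) and the root mean square difference of centred log2 values. Genes named were the members, the 2 nearest genes of each, and in 5 lists the 2 of largest and the 2 of smallest range with Gad1 and Gad2 (1 further gene of the rule is not reported here); other names serve to describe the arrays and were chosen after their values were seen. List genes were read through their brightest probe set. Alternatives were other scalings, floors, filters, time codings and variance models, and each array left out. The number of arrays limits the precision.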

Additional observations from a re-analysis of the deposited data

How the results depend on the processing

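Under all 15 alternatives 0 member probe sets and 0 probe sets overall passed the trend test after adjustment (smallest adjusted p between 0.354 and 0.997), and 0 to 1 member probe sets passed unadjusted. The filter sets how many probe sets are counted: 12422 with none, 4969 at the 60th percentile and 7453 in the main setting. The count with a range of at least 2-fold was 3622 (29.2%) with no filter and 542 (10.9%) with the filter at the 60th percentile, against 1882 (25.3%). The count with 1 array 2-fold apart was 275 with the floor at the 40th percentile, 1190 with no filter and 82 with the filter at the 60th percentile, against 561. Of the members' probe sets, 0 ranged 2-fold under the filter at the 60th percentile, which leaves 7 of them (10.9% over all there). When each array was left out 1 to 2 of 12 did, beside 17.2% to 18.4% of all tested probe sets. Between 0 and 1 of the members' probe sets had an array 2-fold apart when each array was left out. The share of array pairs ordered alike over members was 59.6% with a common median, against 49.3%. Over all pairs of tested probe sets it was 52.3%, against 50.04%. Slopes of some members changed sign. With each array left out they ran, in log2 units per hr, from -0.16 to 0.17 for Vip, -0.10 to 0.18 for Tac1, -0.083 to 0.16 for Npy, -0.077 to 0.032 for the bright Penk probe set, -0.054 to 0.035 for Sst, -0.031 to 0.0026 for the bright Pvalb probe set, -0.029 to 0.071 for Calb1 and -0.11 to 0.026 for Cort. The sign turned without the 6 hr array for Vip, Npy, Penk, Sst, Calb1 and Cort, without the 1 hr array for Tac1 and Pvalb, and without the 4 hr array for Tac1. Comparing 4 and 6 hr with 1 and 2 hr gave Npy 0.082 and the bright Penk probe set -0.053, and log2 of hours gave Npy 0.019. The causes were not tested. Agreement of probe sets over all genes was 34.9% with no filter, where ties at the floor count as not alike. No detection calls were used, so whether dim probe sets such as those of Vip and Tac1 exceeded background is unknown.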
